A study of Mus musculus with 9 samples.

Results

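Transcript levels of 31 genes for lysosomal hydrolases, their cofactors, lysosomal membrane proteins and the transcription factor Tfeb were followed in mouse spermatogonia. The genes were chosen by name for their place in the lysosome, and all 31 were found among the 23813 entries of the deposited expression table. The table held 9 libraries from male pups at postnatal day 6. All pups were Id4-eGFP transgenic mice on a C57BL/6 background (LT-11B6), and every library came from cells sorted as ID4-EGFP+, so a non-transgenic control was not analysed here. ID4 is a protein that blocks DNA binding by other factors, and its level is highest in the stem cells among the undifferentiated spermatogonia, the germ cells that maintain sperm production. TSPAN8-high cells (3 libraries) were the ID4-EGFP+ cells stained most strongly by an antibody to the surface tetraspanin TSPAN8. TSPAN8-low cells (3 libraries) were those stained most weakly, and all ID4-EGFP+ cells (3 libraries) were taken without regard to TSPAN8. Each library was a separate preparation per the labels. The labels do not say whether those preparations were of separate litters, and the p-values below therefore refer to the spread among preparations, which may be technical.

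Lysosomes are acidic organelles that break down proteins, sugar chains, lipids and worn organelles delivered by endocytosis and autophagy. Their hydrolases are made in the endoplasmic reticulum, are mostly tagged with mannose-6-phosphate and sorted to the lysosome, and work inside a membrane whose glycoproteins resist digestion. TFEB and its relatives bind an E-box, CACGTG, within a motif found upstream of many lysosomal genes and raise their transcription when they enter the nucleus. In the testis, Sertoli cells, which clear dying germ cells, and macrophages are known for strong lysosomal activity.

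The promoter letters are shown because this E-box is what ties many of these genes to TFEB. RefSeq windows (build GRCm38.p6, reaching from 250 bases before to 50 after a transcript start) were available for 27 of the 31 genes, through 32 windows, and none was used for Npc1, Asah1, Ctsh or Ctsb. The 150 bases before the start are given below for 5 genes that hold the E-box and for 2 that do not, with capitals marking each CACGTG. Ctsa and Cln3 have 2 windows each, and the stretch with the most copies is the one shown.
Lamp1 (chr8:13159011-13159160, plus strand): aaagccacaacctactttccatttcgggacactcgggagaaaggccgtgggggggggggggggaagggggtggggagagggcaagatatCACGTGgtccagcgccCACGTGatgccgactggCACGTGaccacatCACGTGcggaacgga
Mcoln1 (chr8:3500369-3500518, plus strand): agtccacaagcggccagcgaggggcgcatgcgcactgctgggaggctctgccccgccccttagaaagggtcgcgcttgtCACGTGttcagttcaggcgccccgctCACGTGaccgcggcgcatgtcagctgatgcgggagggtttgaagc
Ctsd (chr7:142387828-142387977, minus strand): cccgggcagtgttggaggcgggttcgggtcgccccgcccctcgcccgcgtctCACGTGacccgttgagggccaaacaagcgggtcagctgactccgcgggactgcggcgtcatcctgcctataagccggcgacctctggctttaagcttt
Ctsa (chr2:164833623-164833772, plus strand): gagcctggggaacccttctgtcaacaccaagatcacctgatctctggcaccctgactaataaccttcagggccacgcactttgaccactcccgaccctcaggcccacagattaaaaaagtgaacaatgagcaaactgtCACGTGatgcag
Cln3 (chr7:126583237-126583386, minus strand): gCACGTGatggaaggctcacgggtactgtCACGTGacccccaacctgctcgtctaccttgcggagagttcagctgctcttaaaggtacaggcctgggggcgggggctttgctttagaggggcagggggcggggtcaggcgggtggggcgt
Grn (chr11:102430357-102430506, plus strand): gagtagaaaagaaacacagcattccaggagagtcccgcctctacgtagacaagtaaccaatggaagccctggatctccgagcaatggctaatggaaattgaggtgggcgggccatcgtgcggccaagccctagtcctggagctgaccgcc
Lipa (chr19:34527475-34527624, minus strand): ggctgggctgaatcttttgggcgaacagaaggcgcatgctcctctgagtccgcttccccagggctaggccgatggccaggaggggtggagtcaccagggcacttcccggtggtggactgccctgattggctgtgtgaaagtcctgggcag
Lamp1, for an abundant lysosomal membrane glycoprotein, held 4 copies within 61 bases of its start, and Mcoln1, for a calcium channel of the lysosomal membrane, held 2. The Grn and Lipa stretches held none.

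Over whole windows, CACGTG was found in 10 of the 27 lysosomal genes (37.0%) and in 2187 of the 27025 genes with a window (8.09%), in 12.7% of the tested genes with a window and in 26.7% of the other lysosomal genes described below. The 10 were Cln3, Ctsa, Ctsd, Ctsl, Gaa, Gla, Glb1, Lamp1, Mcoln1 and Naglu. The longer palindrome TCACGTGA, which contains the E-box, was in 5 of 27 (18.5%), in 1.12% of all genes, in 2.35% of tested genes and in 11.6% of the other lysosomal genes. GTCACGTG, read on both strands and overlapping the other motifs, was in 8 of 27 (29.6%), in 2.55% of all genes, in 5.19% of tested genes and in 16.3% of the other lysosomal genes. A match describes letters only and is not evidence of binding, and these shares carry no test.

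**Figure D1:**
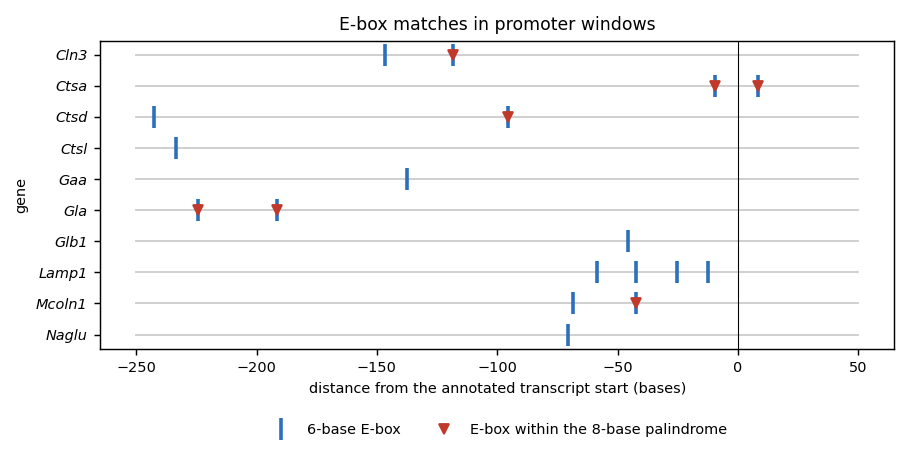
Positions of E-box matches in the promoter windows of the 10 lysosomal genes that hold one, with distance from the annotated transcript start in bases on the x axis and 1 row per gene. Bars mark CACGTG and triangles mark a copy inside TCACGTGA; Lamp1 has 4 copies close to its start, whereas the copy of Ctsl lies 236 bases before it.

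Levels are given as FPKM, fragments scaled by transcript length and by library size, as the authors deposited them, so genes can be set side by side per unit of transcript length. Absolute depth is unknown. Judged by the commonest ratio of low FPKM values, the libraries had 0.859 to 1.04 times the depth of the first all ID4-EGFP+ library. Tspan8 had 43.7, 29.6 and 28.8 FPKM in TSPAN8-high cells, against 6.65, 10.8 and 11.8 FPKM in TSPAN8-low cells, so the sort was visible in the RNA. Summed over 9 germ cell markers, FPKM ran from 2693 to 2957 in TSPAN8-high, 2636 to 3136 in TSPAN8-low and 2575 to 2945 in all ID4-EGFP+ libraries. Sertoli cell markers differed both by library and by group: the 11 genes of that list in the table summed to 63.2, 62.1 and 167 FPKM in TSPAN8-high, 9.86, 13.4 and 96.0 FPKM in TSPAN8-low, and 12.6, 32.6 and 80.7 FPKM in all ID4-EGFP+ libraries, although Amh, Sox9, Wt1 and Gata4 stayed under 1 FPKM in all 9. Within each replicate number that sum was highest in TSPAN8-high. The 10 macrophage and leukocyte markers summed to 2.48, 8.49 and 26.7 FPKM in TSPAN8-high, 1.62 to 3.85 FPKM in TSPAN8-low and 2.37 to 3.05 FPKM in all ID4-EGFP+ libraries. Peritubular myoid markers summed to 3.57 to 7.63 FPKM in TSPAN8-high, 1.55 to 3.73 FPKM in TSPAN8-low and 2.35 to 4.95 FPKM in all ID4-EGFP+ libraries, and interstitial stroma markers to 3.83 to 13.7 FPKM in TSPAN8-high, 1.78 to 8.84 FPKM in TSPAN8-low and 2.08 to 5.46 FPKM in all ID4-EGFP+ libraries. Leydig cell, endothelial and red blood cell lists each summed to at most 6.48 FPKM in any library.

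The ID4-EGFP+ spermatogonia carried most of the lysosomal machinery at measurable levels. Between 27 and 29 of the 31 genes reached 1 FPKM in TSPAN8-high libraries, against 25 or 26 in TSPAN8-low and 26 to 28 in all ID4-EGFP+ libraries. Over the whole table, 10734 to 11155 of the 23813 entries did so per library. The counts of lysosomal genes differed only through Manba, Scarb2, Naglu and Tfeb, which lay near 1 FPKM. The 2 LAMP proteins, which line the lysosomal membrane, led the set. Lamp1 had 350, 329 and 337 FPKM in TSPAN8-high cells, 354, 300 and 308 FPKM in TSPAN8-low cells and 337, 282 and 338 FPKM in all ID4-EGFP+ cells. Its mean over the 9 libraries stood at the 95.3 percentile of tested genes. Lamp2 averaged 222 ± 44.5 FPKM in TSPAN8-high, 224 ± 39.0 FPKM in TSPAN8-low and 183 ± 40.0 FPKM in all ID4-EGFP+ cells (SD, n = 3 each). The next levels belonged to Ctsl, Asah1 and Ctsd, which averaged 96.6 to 136 FPKM by group and overlapped one another in their spread. At the other end, Ctsh, Naglu, Galc and Tfeb did not reach 1 FPKM in 3 or more libraries, the minimum for testing, which left 27 genes tested.

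**Figure D2:**
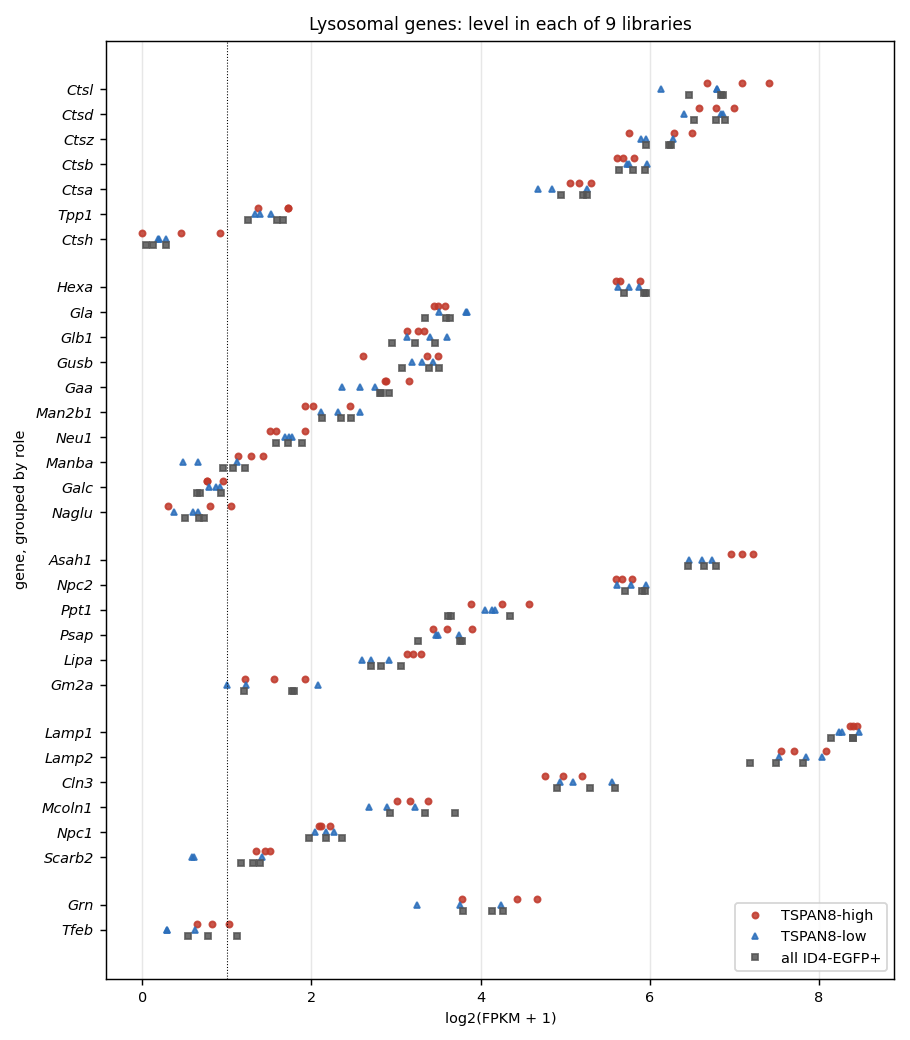
Level of each of the 31 genes in each of the 9 libraries, as log2(FPKM + 1) on the x axis, with 1 row per gene grouped by role; circles are TSPAN8-high, triangles TSPAN8-low and squares all ID4-EGFP+ libraries, and the dotted line marks 1 FPKM. Lamp1 and Lamp2 lie highest, Ctsh, Naglu, Galc and Tfeb lowest, and for most genes the 3 groups overlap.

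The first comparison asks whether these transcripts differ between the TSPAN8 fractions, which were reported by the study's labels as subpopulations of the same ID4-EGFP+ cells. None of the 27 tested genes passed a Benjamini-Hochberg adjusted p of 0.05 in limma, the linear model fitted across all 11142 tested genes, whereas 5.56% of all tested genes did (3.41% higher and 2.15% lower in TSPAN8-high). The balance of directions over all tested genes depended on the scaling: 380 were higher and 239 lower in FPKM as deposited, against 228 higher and 362 lower with a common median, 223 and 307 with the authors' normalized values and 250 and 300 with common quantiles. At an unadjusted p under 0.05 there were 5 of 27, against 22% of all tested genes. Libraries that share a replicate number deviated together, so a second limma fit took that number as a block. With the block, 5 of 27 passed, all higher in TSPAN8-high: Ctsl, Asah1, Lipa, Scarb2 and Grn. That is 18.5%, against 19.1% of all tested genes, of which 11.8% were higher and 7.34% lower. That balance turned as well, with 1313 genes higher and 818 lower in FPKM as deposited, against 825 higher and 1168 lower with a common median and 927 and 1018 with normalized values. The share called with the block was thus close to the background. None of the 5 genes passed in the block fit when replicate number 1 or number 3 was left out of all groups.

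Differences were small. The median log2 fold change on log2(FPKM + 1), TSPAN8-high over TSPAN8-low, was 0.08 over the 27 genes and 0.05 over all tested genes. Estimates were above 0 for 16 of 27 (59.3%), against 56.6% of all tested genes, and 11 of the 27 changed sign under at least 1 of the alternatives tried. The 95% interval lay within a log2 change of 1 in either direction for 25 of 27 genes, and the widest reaches were -0.68 for Cln3 and 1.13 for Grn. The 3 TSPAN8-high values lay wholly above the 3 TSPAN8-low values for 4 of 27 genes (Gaa, Manba, Asah1 and Lipa), and wholly below for 0. Over all tested genes those shares were 15.9% and 9.71%.

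**Figure D3:**
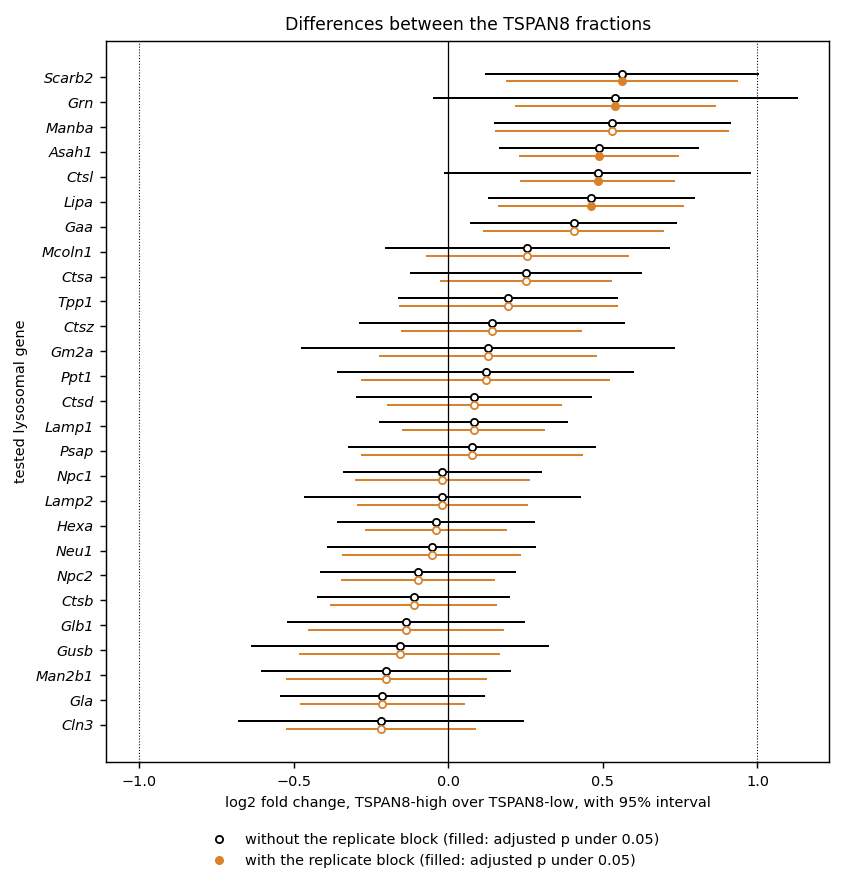
Log2 fold change of the 27 tested lysosomal genes, TSPAN8-high over TSPAN8-low, with 95% intervals, ordered by size; black is the fit without the replicate block and orange the fit with it, and filled points have an adjusted p under 0.05. Filled points are found for Scarb2, Grn, Asah1, Ctsl and Lipa, all in the fit with the block, and dotted lines mark a log2 change of 1.

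Among the proteases, 1 of 6 tested genes passed, and only with the block, which is 16.7% against 19.1% of all tested genes. Ctsl encodes cathepsin L, a cysteine protease with broad specificity. It had 101.1, 136 and 169 FPKM in TSPAN8-high cells, 69.2, 110 and 111 FPKM in TSPAN8-low cells and 87.6, 115 and 114 FPKM in all ID4-EGFP+ cells. Each TSPAN8-high library was above the TSPAN8-low library of its number, but the groups overlapped, since TSPAN8-high replicate 1 lay below 2 of the TSPAN8-low libraries. The log2 fold change was 0.48 with an SE of 0.23 (adjusted p = 0.238, limma) without the block, and with it the SE was 0.11 and the adjusted p 0.0134. Within the block fit the adjusted p was 0.0522 without TSPAN8-high replicate 1 and 0.0860 without TSPAN8-high replicate 3, the library with the highest sums of Sertoli and macrophage markers; without replicate number 1 or 3 in all groups it was 0.0510 and 0.108.

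The other proteases showed no difference beyond the spread of the libraries. Ctsd, for the aspartic protease cathepsin D, averaged 110 ± 15.8 FPKM in TSPAN8-high, 104 ± 17.7 FPKM in TSPAN8-low and 106 ± 13.3 FPKM in all ID4-EGFP+ cells (SD, n = 3 each). Ctsb, for cathepsin B, averaged 51.2 ± 3.75 FPKM in TSPAN8-high, 55.5 ± 5.12 FPKM in TSPAN8-low and 54.6 ± 5.74 FPKM in all ID4-EGFP+ cells (SD, n = 3 each); its log2 fold change between the fractions was -0.11, with a 95% interval of -0.42 to 0.20. Ctsz, for a carboxypeptidase of the same family, and Ctsa, for the serine carboxypeptidase that also protects other hydrolases, had log2 fold changes of 0.14 and 0.25. Tpp1, for a tripeptidyl peptidase, was near 2 FPKM, with means of 2.06 FPKM in TSPAN8-high, 1.67 FPKM in TSPAN8-low and 1.86 FPKM in all ID4-EGFP+ cells. Ctsh, for an aminopeptidase, was listed at 0, 0.372 and 0.888 FPKM in TSPAN8-high cells, against 0.136 to 0.216 FPKM in TSPAN8-low cells. Its 2 highest values were in the TSPAN8-high libraries with the most macrophage marker RNA, and the part of those cells in them was not tested.

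None of the 8 tested glycosidases passed in either fit, against 5.56% of all tested genes without the block and 19.1% with it. Of the 8 estimates 2 were above 0, against 56.6% of all tested genes. Gaa, for the acid alpha-glucosidase that degrades glycogen, had 6.32, 6.36 and 7.87 FPKM in TSPAN8-high cells, 4.14, 4.94 and 5.74 FPKM in TSPAN8-low cells and 6.54, 6.07 and 6.00 FPKM in all ID4-EGFP+ cells. The TSPAN8-low values lay below those of both other groups. The log2 fold change between the fractions was 0.41 with a 95% interval of 0.07 to 0.74 (adjusted p = 0.145, limma), and the adjusted p with the block was 0.0515. Manba, for beta-mannosidase, was low throughout, with 1.20, 1.70 and 1.43 FPKM in TSPAN8-high cells, 0.396, 0.579 and 1.17 FPKM in TSPAN8-low cells and 1.32, 1.11 and 0.939 FPKM in all ID4-EGFP+ cells. TSPAN8-high lay above TSPAN8-low without overlap, but TSPAN8-low replicate 3 came close to TSPAN8-high replicate 1. Its log2 fold change was 0.53 with an SE of 0.17 (adjusted p = 0.101, limma). The adjusted p was 0.05002 with the block, just over the threshold. In the fit without the block, Manba passed when TSPAN8-low replicate 3, its highest TSPAN8-low value, was left out.

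The remaining glycosidases differed by less. Hexa, for an enzyme subunit of ganglioside breakdown, was the most abundant of them, at 51.5 ± 5.60 FPKM in TSPAN8-high, 53.0 ± 4.79 FPKM in TSPAN8-low and 57.2 ± 5.49 FPKM in all ID4-EGFP+ cells (SD, n = 3 each). Gla, for alpha-galactosidase, had the lowest estimate of the group, with a log2 fold change of -0.21 and a 95% interval of -0.54 to 0.12. Glb1, for beta-galactosidase, Gusb, for beta-glucuronidase, Man2b1, for alpha-mannosidase, and Neu1, for a sialidase, had log2 fold changes of -0.14, -0.16, -0.20 and -0.05. Naglu, for an enzyme of heparan sulfate breakdown, averaged 0.686 FPKM in TSPAN8-high, 0.464 FPKM in TSPAN8-low and 0.556 FPKM in all ID4-EGFP+ cells. Galc, for galactosylceramidase, averaged 0.779 FPKM in TSPAN8-high, 0.815 FPKM in TSPAN8-low and 0.694 FPKM in all ID4-EGFP+ cells. The levels of both were too low to test.

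Without the block the smallest adjusted p among the 27 belonged to a lipid hydrolase, Asah1, whereas with it that of Ctsl was slightly smaller. Asah1 encodes acid ceramidase, which splits ceramide into sphingosine and a fatty acid. It had 149, 135 and 124 FPKM in TSPAN8-high cells, 105, 87.4 and 96.9 FPKM in TSPAN8-low cells and 98.7, 110 and 86.3 FPKM in all ID4-EGFP+ cells. All 3 TSPAN8-high libraries lay above the other 6. The log2 fold change against TSPAN8-low was 0.49 with an SE of 0.15 (adjusted p = 0.0763, limma), and with the block the SE was 0.12 and the adjusted p 0.0142. Within the block fit the adjusted p was 0.0733 when TSPAN8-high replicate 1 was left out, 0.0628 when it was replicate 2 of that fraction and 0.0866 when it was TSPAN8-low replicate 2, and 0.0505 to 0.0941 without 1 replicate number in all groups.

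Lipa encodes lysosomal acid lipase, which frees cholesterol and fatty acids from endocytosed lipoprotein lipids. It had 8.20, 7.73 and 8.80 FPKM in TSPAN8-high cells, 5.54, 5.07 and 6.58 FPKM in TSPAN8-low cells and 7.33, 6.07 and 5.50 FPKM in all ID4-EGFP+ cells. Here too the TSPAN8-high values did not overlap those of either other group. The log2 fold change against TSPAN8-low was 0.46 with an SE of 0.15 (adjusted p = 0.101, limma), and the adjusted p with the block was 0.0351. Within the block fit it was 0.0750 to 0.137 without 1 of the TSPAN8-high libraries or TSPAN8-low replicates 1 and 2, 0.0853 to 0.167 without 1 replicate number, and 0.0731 with the libraries also set to a common median.

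The other 4 genes of lipid breakdown gave no call in either fit. With Asah1 and Lipa, 2 of 6 passed with the block (33.3%, against 19.1% of all tested genes) and 0 without it. Ppt1, for a thioesterase that removes palmitate from proteins, averaged 18.2 ± 4.54 FPKM in TSPAN8-high, 16.4 ± 0.713 FPKM in TSPAN8-low and 14.0 ± 4.56 FPKM in all ID4-EGFP+ cells (SD, n = 3 each). Psap, for the precursor of the saposins that present sphingolipids to their hydrolases, had a log2 fold change of 0.08. Gm2a, for the activator of ganglioside breakdown, ran from 1.32 to 2.78 FPKM in TSPAN8-high and from 1.00 to 3.21 FPKM in TSPAN8-low libraries. Npc2, for the soluble protein that hands cholesterol to NPC1, averaged 50.5 ± 3.42 FPKM in TSPAN8-high, 54.3 ± 6.43 FPKM in TSPAN8-low and 57.0 ± 5.10 FPKM in all ID4-EGFP+ cells (SD, n = 3 each).

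Among the 6 membrane proteins, 1 passed with the block (16.7%, against 19.1% of all tested genes), which was Scarb2. It encodes the receptor that carries beta-glucocerebrosidase to the lysosome. It had 1.84, 1.72 and 1.55 FPKM in TSPAN8-high cells, 0.528, 1.66 and 0.509 FPKM in TSPAN8-low cells and 1.47, 1.63 and 1.25 FPKM in all ID4-EGFP+ cells. A pair of TSPAN8-low libraries was low, and TSPAN8-low replicate 2 lay within the range of the other groups. The log2 fold change was 0.56 with an SE of 0.20 (adjusted p = 0.130, limma), with an adjusted p of 0.0396 with the block and of 0.0202 without the block and without TSPAN8-low replicate 2. Within the block fit the adjusted p was 0.0527 to 0.159 when any 1 of TSPAN8-high replicates 1 and 3, TSPAN8-low replicates 1 and 3 or all ID4-EGFP+ replicates 1 and 3 was left out, 0.208 and 0.252 without replicate numbers 1 and 3, and 0.0865 with the libraries also set to a common median. At these levels, near 1 FPKM, the +1 on the log scale understates the change.

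Lamp1 and Lamp2 had log2 fold changes of 0.08 (95% interval -0.22 to 0.38) and -0.02 (95% interval -0.46 to 0.42) between the fractions. Cln3, for a lysosomal membrane protein whose loss causes a childhood form of neuronal ceroid lipofuscinosis, was lower in TSPAN8-high in each of the 3 replicate numbers, yet its groups overlapped. It averaged 30.7 ± 4.80 FPKM in TSPAN8-high, 36.3 ± 8.49 FPKM in TSPAN8-low and 38.1 ± 9.11 FPKM in all ID4-EGFP+ cells (SD, n = 3 each), and its log2 fold change of -0.22 was the lowest of the set (adjusted p = 0.579, limma). Mcoln1 averaged 8.15 ± 1.19 FPKM in TSPAN8-high, 6.72 ± 1.5 FPKM in TSPAN8-low and 9.27 ± 2.68 FPKM in all ID4-EGFP+ cells (SD, n = 3 each). Npc1, for the membrane protein that exports cholesterol from lysosomes, averaged 3.41 FPKM in TSPAN8-high, 3.48 FPKM in TSPAN8-low and 3.53 FPKM in all ID4-EGFP+ cells.

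Grn encodes progranulin, a secreted and lysosomal glycoprotein cut into granulins. It had 12.7, 20.5 and 24.4 FPKM in TSPAN8-high cells, 8.53, 17.9 and 12.5 FPKM in TSPAN8-low cells and 12.9, 18.2 and 16.6 FPKM in all ID4-EGFP+ cells. The libraries varied as much by replicate number as by group, and TSPAN8-high and TSPAN8-low overlapped. The log2 fold change was 0.54 with an SE of 0.27 (adjusted p = 0.264, limma), and with the block the SE was 0.15 and the adjusted p 0.0262. Within the block fit the adjusted p was 0.154 without TSPAN8-high replicate 3 and 0.124 without TSPAN8-low replicate 3, 0.0525 without TSPAN8-high replicate 1 and 0.0650 without TSPAN8-low replicate 1. Without replicate numbers 1 and 3 it was 0.0610 and 0.238, and it was 0.0545 with the libraries also set to a common median.

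Tfeb itself was scarce. It had 0.564, 1.04 and 0.773 FPKM in TSPAN8-high cells, 0.224, 0.541 and 0.222 FPKM in TSPAN8-low cells and 0.460, 1.17 and 0.719 FPKM in all ID4-EGFP+ cells. TSPAN8-high lay above TSPAN8-low without overlap, with TSPAN8-low replicate 2 close to TSPAN8-high replicate 1. Fitted with no minimum, its log2 fold change was 0.43 (adjusted p = 0.332, limma).

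**Figure D4:**
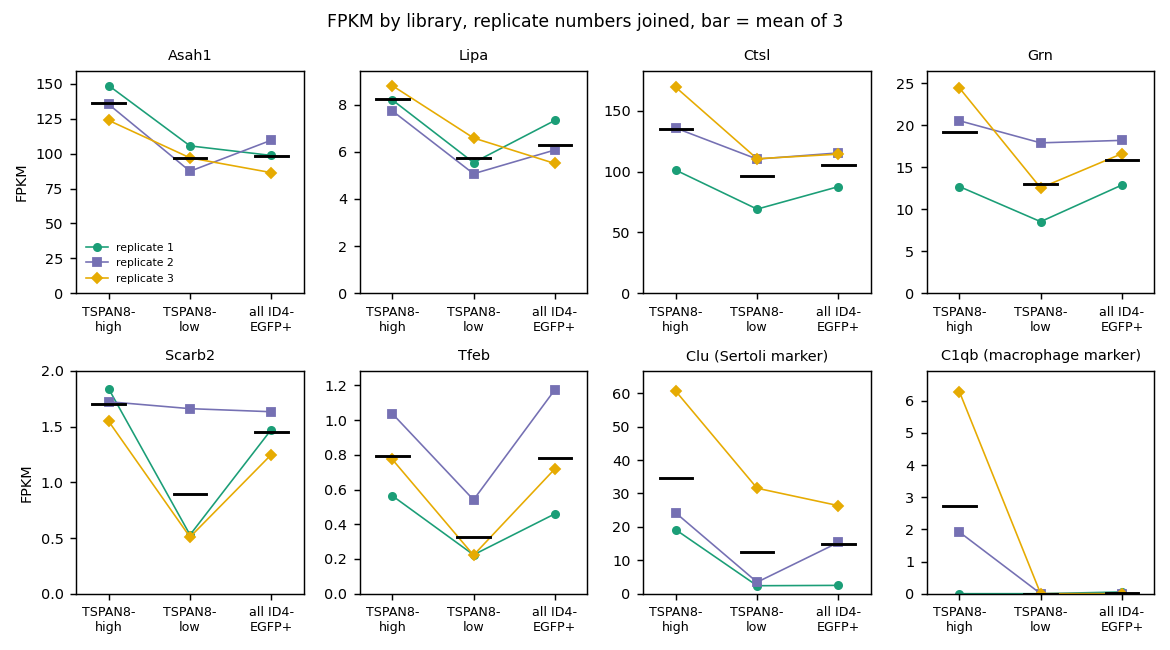
FPKM of 6 lysosomal genes and of a Sertoli and a macrophage marker in each library, with TSPAN8-high, TSPAN8-low and all ID4-EGFP+ on the x axis, FPKM on the y axis from 0, lines joining libraries of the same replicate number and bars at the mean of 3. Asah1 is highest in TSPAN8-high replicate 1, whereas Ctsl, Grn, Clu and C1qb are highest in TSPAN8-high replicate 3.

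Some lysosomal genes peaked in the same library as markers of other testis cells, but did not follow them in every group. Clu, for the Sertoli product clusterin, had 19.1, 24.2 and 60.6 FPKM in TSPAN8-high cells, 2.38, 3.45 and 31.6 FPKM in TSPAN8-low cells and 2.49, 15.3 and 26.4 FPKM in all ID4-EGFP+ cells. C1qb, for a complement chain made by macrophages, had 0, 1.92 and 6.28 FPKM in TSPAN8-high cells and at most 0.0531 FPKM elsewhere. Ctsl and Grn were highest in the same library as both, TSPAN8-high replicate 3. In TSPAN8-low and in all ID4-EGFP+ cells, Clu was highest in replicate 3 but Grn in replicate 2. Asah1 was highest in TSPAN8-high replicate 1. There the Sertoli list summed to 63.2 FPKM, against 9.86 and 12.6 FPKM in replicate 1 of TSPAN8-low and of all ID4-EGFP+ cells. The macrophage and leukocyte list summed to 2.48 FPKM there, against 1.62 and 2.74 FPKM. Mrc1, a macrophage receptor gene, did pass the test, with a log2 fold change of 0.84 (adjusted p = 0.00828, limma), at 1.11 to 1.51 FPKM in TSPAN8-high and 0.206 to 0.383 FPKM in TSPAN8-low libraries. The part of Sertoli cells and of macrophages in the lysosomal values was not tested in any library. In such bulk libraries a larger share of a cell type and more RNA per cell cannot be told apart.

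Summed over the 31 genes, FPKM came to 1329, 1317 and 1411 in TSPAN8-high, 1240, 1190 and 1294 in TSPAN8-low and 1291, 1178 and 1228 in all ID4-EGFP+ libraries. That was 0.167 to 0.173% of all FPKM in TSPAN8-high, 0.136 to 0.161% in TSPAN8-low and 0.132 to 0.160% in all ID4-EGFP+ libraries. The TSPAN8-high sums lay above those of the other groups. Over the 27 tested genes the TSPAN8-high sums also lay above the TSPAN8-low sums with common quantiles (1327 to 1392 in TSPAN8-high, 1186 to 1277 in TSPAN8-low) and in the authors' normalized values (1365 to 1425 in TSPAN8-high, 1211 to 1330 in TSPAN8-low), but with a common median they overlapped, at 1296 to 1340 in TSPAN8-high and 1270 to 1336 in TSPAN8-low. By role, the proteases summed to 331, 410 and 482 FPKM in TSPAN8-high and 291, 382 and 387 FPKM in TSPAN8-low. In all ID4-EGFP+ libraries the proteases summed to 356, 368 and 394 FPKM, and all groups overlapped. Mean sums in TSPAN8-high and TSPAN8-low were 408 and 353 FPKM for proteases, and 226 and 186 FPKM for lipid hydrolases and activators. The lipid hydrolases and activators summed to 232, 221 and 226 FPKM in TSPAN8-high, 188, 176 and 194 FPKM in TSPAN8-low and 193, 196 and 178 FPKM in all ID4-EGFP+ libraries, and Asah1 was the largest part of each sum. The membrane proteins summed to 667, 575 and 571 FPKM in TSPAN8-high, 658, 524 and 595 FPKM in TSPAN8-low and 625, 502 and 534 FPKM in all ID4-EGFP+ libraries, with overlap of all groups. The glycosidases overlapped as well, at 86.2 to 105 FPKM in TSPAN8-high, 90.0 to 106 FPKM in TSPAN8-low and 91.8 to 105 FPKM in all ID4-EGFP+ libraries.

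Each fraction was also set against all ID4-EGFP+ cells, and these comparisons share the all ID4-EGFP+ libraries. Against them, 0 of 27 genes passed in TSPAN8-high in either limma fit, where 0.144% of all tested genes passed without the block (0.0269% higher and 0.117% lower) and 3.09% with it (1.23% higher and 1.86% lower), and 2 of 27 (Asah1 and Lipa) had an unadjusted p under 0.05 (all tested genes 9.74%). The 3 values of both genes lay above those of all ID4-EGFP+ cells, as was so for 6.79% of all tested genes; no member lay wholly below, against 8.34% of all tested genes. Asah1 had a log2 fold change of 0.47 (95% interval 0.15 to 0.79, adjusted p = 0.264, limma, and 0.0540 with the block), and Lipa one of 0.35 (95% interval 0.02 to 0.68, adjusted p = 0.482). The median over the 27 genes was 0.04, against -0.01 over all tested genes.

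In TSPAN8-low against all ID4-EGFP+ cells, 0 of 27 passed in either limma fit, where 0% of all tested genes passed without the block and 0.0449% with it (0.00898% higher and 0.0359% lower, 1 gene and 4 genes, against 23 higher and 5 lower with the block and either a common median or normalized values), and 0 of 27 had an unadjusted p under 0.05 (all tested genes 8.17%). Estimates were above 0 for 7 of 27 (25.9%), against 37.6% of all tested genes. Their median was -0.06, near the median of -0.07 over all tested genes, both in FPKM as deposited. Setting the libraries to a common median shifts every gene's estimate alike, members included, and put the median over all tested genes at 0.03. Gaa was the gene whose TSPAN8-low values all lay below those of all ID4-EGFP+ cells, with a log2 fold change of -0.29 (95% interval -0.62 to 0.04); 10.8% of all tested genes had such values, and 3.44% lay wholly above, as no member did. The lowest estimates belonged to Scarb2, at -0.42, and Mcoln1, at -0.39. Asah1, higher in TSPAN8-high than in either other group by its values, had a log2 fold change of -0.02 here (95% interval -0.34 to 0.30).

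Beyond the 31 genes, 115 further lysosomal genes were grouped in 5 lists, of which 92 could be tested. Between the fractions 3 of 92 passed without the block, Atp6v1b2 and Ap1b1 higher and Cd63 lower in TSPAN8-high, which is 3.26% against 5.56% of all tested genes. With the block 12 of 92 passed, 13% against 19.1%, with 6 in each direction; the split was 5 higher and 12 lower with a common median and the block, and 5 and 9 with normalized values and the block. The median log2 fold change was 0.07 over the 92 and 0.05 over all tested genes. Against all ID4-EGFP+ cells, 1 of 92 passed in TSPAN8-high (Cd63, lower) and 0 in TSPAN8-low, in limma with and without the block. Of all tested genes 0.144% passed in TSPAN8-high (3.09% with the block) and 0% in TSPAN8-low (0.0449% with the block).

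The largest difference among them was in Cd63, for a tetraspanin of late endosomes, lysosomes and secretory vesicles. It had 82.6, 92.8 and 98.7 FPKM in TSPAN8-high cells, 231, 234 and 233 FPKM in TSPAN8-low cells and 170, 148 and 170 FPKM in all ID4-EGFP+ cells. The groups were fully separate, with all ID4-EGFP+ in between. Cd63 fell in TSPAN8-high by a log2 change of -1.34 with an SE of 0.13 against TSPAN8-low (adjusted p = 0.000674, limma) and of -0.83 against all ID4-EGFP+ (adjusted p = 0.0448, limma). The first call was lost when replicate 2 was left out of all groups (adjusted p = 0.0548). The second was lost with no minimum (0.0786), with the authors' normalized values (0.0522), with only those groups in the fit (0.0554), without any 1 of 7 libraries (0.0550 to 0.207) and without any replicate number (0.200 to 0.401). With the block its adjusted p was 0.00196, and it passed in every block fit tried. Of the other membrane proteins on the list, Cd68, for a glycoprotein of macrophage lysosomes, had a log2 fold change of 0.59, Ostm1, a partner of the chloride exchanger of the lysosome, one of -0.51 and Tmem192 one of -0.49. These 3 passed with the block, with adjusted p of 0.0384, 0.0305 and 0.0125. Without it, 1 of the 17 tested membrane proteins passed (5.88%, against 5.56% of all tested genes). With it, 4 of the 17 did (23.5%, against 19.1%).

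Of the 17 subunits of the vacuolar proton pump, which acidifies the lysosome, 1 passed without the block (5.88%, against 5.56% of all tested genes) and 2 with it (11.8%, against 19.1%). Atp6v1b2, for a subunit of the pump's cytosolic head, had 173, 160 and 178 FPKM in TSPAN8-high cells, 104, 103 and 119 FPKM in TSPAN8-low cells and 138, 139 and 136 FPKM in all ID4-EGFP+ cells. The groups were separate, and Atp6v1b2 rose in TSPAN8-high against TSPAN8-low by a log2 change of 0.65 with an SE of 0.13 (adjusted p = 0.0161, limma). The adjusted p was 0.0585 and 0.0606 when TSPAN8-high replicate 2 or 3 was left out, 0.0632 when it was TSPAN8-low replicate 2 and 0.0876 to 0.191 when a replicate number was left out of all groups. Atp6v0b, for a membrane-sector subunit, had a log2 fold change of -0.46 and passed with the block (adjusted p = 0.0347), and Atp6v0e and Atp6v1f had -0.37 and -0.35 without a call in either fit. The median over the 17 was 0.10.

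Sorting and modification genes numbered 21 tested, with a median log2 fold change of 0.21 and 16 of 21 estimates above 0, against 56.6% of all tested genes. Ap1b1, for a subunit of the adaptor that loads hydrolase receptors into vesicles at the Golgi, had 9.38, 11.6 and 13.7 FPKM in TSPAN8-high cells, 6.20, 8.08 and 5.75 FPKM in TSPAN8-low cells and 10.0, 12.9 and 9.47 FPKM in all ID4-EGFP+ cells. TSPAN8-low was the lowest group, and Ap1b1 rose in TSPAN8-high against it by a log2 change of 0.71 with an SE of 0.18 (adjusted p = 0.0445, limma). That call was lost with libraries set to a common median (adjusted p = 0.0712) or to common quantiles (0.0705), with only the fractions in the fit (0.0592), with no minimum on FPKM (0.142), in the authors' normalized values (0.0816) and when any 1 of 7 libraries was left out, at 0.0523 to 0.164, or any replicate number, at 0.0709 to 0.357. Vps11 and Vps16, for core subunits of the complexes that tether vesicles to lysosomes, had log2 fold changes of 0.57 and 0.64. Both passed with the block (adjusted p = 0.0167 and 0.0185, limma). Of the 21 genes, 1 passed without the block (4.76%, against 5.56% of all tested genes) and 3 with it (14.3%, against 19.1%). In TSPAN8-low against all ID4-EGFP+ cells 1 of these 21 estimates was above 0, against 37.6% of all tested genes. Their median was -0.25, against -0.07 over all tested genes, both in FPKM as deposited. A common median shifts every estimate of this comparison alike and put the median over all tested genes at 0.03. None of the 21 passed in either limma fit.

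None of the 22 tested further hydrolases and cofactors passed without the block, against 5.56% of all tested genes. With the block 1 of the 22 passed (4.55%, against 19.1%). Fuca1, Acp5 and Plbd2 had log2 fold changes of 0.39, -0.39 and -0.38 between the fractions, with no call in either fit. Ctss, for a cathepsin of macrophages, was under the minimum for testing; it had 0, 1.72 and 5.90 FPKM in TSPAN8-high libraries and at most 0.115 FPKM elsewhere. Of 15 tested genes of the TFEB family and its control, 0 passed without the block and 2 fell with it, Lamtor3 (log2 change -0.44, adjusted p = 0.0269) and Lamtor5 (-0.37, adjusted p = 0.0300), whose products anchor a nutrient-sensing kinase to the lysosome. That is 13.3%, against 19.1% of all tested genes called with the block, 7.34% lower. Tfe3, a relative of Tfeb, had 3.4, 3.27 and 3.52 FPKM in TSPAN8-high cells, 2.73, 2.03 and 3.92 FPKM in TSPAN8-low cells and 3.5, 3.01 and 3.16 FPKM in all ID4-EGFP+ cells, above Tfeb in every library; it was picked out after its values were seen.

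**Figure D5:**
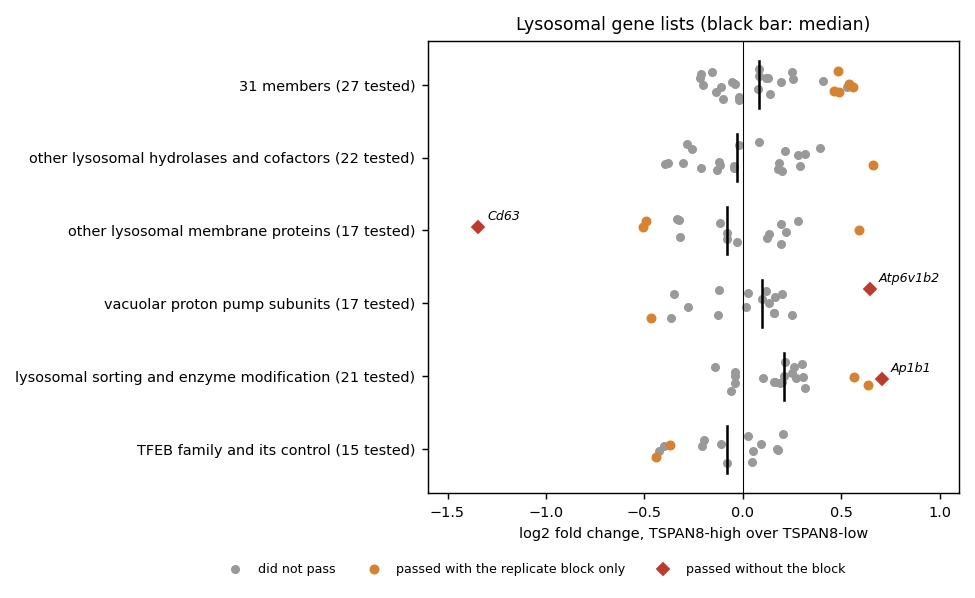
Log2 fold change, TSPAN8-high over TSPAN8-low, of each tested gene of the 31 (top row) and of the 5 further lysosomal lists, with black bars at the medians and points spread vertically for legibility only. Cd63, Atp6v1b2 and Ap1b1, as diamonds, passed without the replicate block, orange points passed with it, and the medians lie between -0.08 and 0.21.

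Calls and E-boxes can be set side by side. Of the 5 genes that passed with the block, Ctsl held a CACGTG, 236 bases before its start, the windows of Lipa, Grn and Scarb2 held none, and no window was used for Asah1. Of the genes with the palindrome, Ctsa, Ctsd, Gla, Cln3 and Mcoln1, none passed in any of the 3 comparisons in either limma fit. Of all tested genes 5.56% passed between the fractions without the block and 19.1% with it, and at most 3.09% in the other comparisons. With so few genes, the absence of calls cannot be told from those shares. Their log2 fold changes between the fractions ran from -0.22 for Cln3 to 0.25 for Mcoln1. No match in a window says only that these letters are not in it.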

How the data were processed

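The authors deposited Cufflinks FPKM for 9 libraries, made from SMART-Seq v4 cDNA (primed on poly(A), strand not kept) and Nextera XT libraries read paired-end, per the labels' protocols. Alignment used TopHat2 2.0.12 with Bowtie2 2.2.3.0, after FastQC, per the submitters' processing notes, on mm9; no source here gives the Cufflinks version or the annotation. Reads of a gene and an antisense partner were not separated. A deposited table of normalized signal values entered as an alternative scaling only; how the authors made it is not stated.

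Letters and numbers in the column names were used to find each column's sample. Entries of 262 repeated symbols (768 entries) were left out, and 27 entries showing a date in place of a symbol were kept for the fit. Genes with FPKM of at least 1 in at least 3 libraries (11142) entered a limma 3.58.1 fit in R 4.3.3 (two-sided, eBayes with a trend) on log2(FPKM + 1), 3 groups in 1 fit, with Benjamini-Hochberg adjustment over all of them and a threshold of 0.05. Fold changes are on that scale, which understates low genes. Means ± SD are of FPKM. The fit without the block was tested on simulated data, with independent libraries and set changes larger than that of any tested lysosomal gene. The block fit and smaller changes were not tested in this way. Depth is unknown, so no counting intervals are given.

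The labels give the groups the same replicate numbers. Deviations from group means correlated at r of 0.265 to 0.481 across genes for the 9 same-numbered pairs, and at -0.456 to 0.277 for the 18 others. The block fit therefore treated same-numbered libraries as paired, which rests on the data and not on the labels. The fit without the block ignores that pairing, and the fold changes, intervals and SEs are from it unless the block is named. Block values stand where they change a call.

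The 31 genes and the lists were chosen with earlier results of these data known. Of the 115 other lysosomal genes, up to 4 tested genes per list with the smallest p, TSPAN8-high against TSPAN8-low, were named by rule; 1 of these is not reported here. Promoter windows come from RefSeq (GRCm38.p6); motifs were searched on both strands. Python 3.11.15, pandas 2.3.3 and matplotlib 3.10.9 made tables and plots. Alternatives were another pseudocount (0.1), no minimum or 5 FPKM, 3 other scalings, the block, only the groups compared, and leaving out libraries; those combining the block with another change were added after seeing the data.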

Additional observations from a re-analysis of the deposited data

How the results depend on the processing

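Members called, TSPAN8-high against TSPAN8-low, numbered 0 in limma without the block under every pseudocount, minimum and scaling tried (5 at an unadjusted p under 0.05), 0 to 1 when libraries were left out (1 without TSPAN8-low replicate 2, Scarb2, and 1 without TSPAN8-low replicate 3, Manba), 5 with the replicate block, 2 with a common median and the block, 3 with the authors' normalized values and the block, and 0 to 6 when libraries were left out of the block fit. Against all ID4-EGFP+, TSPAN8-high called 0 members except Asah1, 1 member, with normalized values and the block and in 3 block fits with a library left out, and TSPAN8-low called 0 throughout. The cause of these moves was not tested.

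All tested genes called, TSPAN8-high against TSPAN8-low, were 619, against 150 with no minimum, 360 with 5 FPKM, 2131 with the block, 1993 and 1945 with the block plus a common median or normalized values, 10 to 633 with libraries or numbers left out, and 779 to 2325 in such block fits. TSPAN8-high against all ID4-EGFP+ called 16, against 3 with no minimum, 7 with normalized values, 344 with the block, 27 with only those groups, 310 and 360 with the block plus a common median or normalized values, 0 to 111 with libraries left out and 87 to 598 in such block fits. TSPAN8-low against all ID4-EGFP+ called 0 (910 at an unadjusted p under 0.05), 1 with no minimum, 5 with the block, 28 and 28 with the block plus either scaling, 0 to 1 with libraries left out and 0 to 14 in such block fits. Other lysosomal genes between the fractions called 3, against 12 with the block, 17 and 14 with the block plus a common median or normalized values, 0 to 5 with libraries left out and 4 to 18 in such block fits.

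No call turned round. Of the 27 members, 11 (TSPAN8-high against TSPAN8-low), 13 (TSPAN8-high against all ID4-EGFP+) and 16 (TSPAN8-low against all ID4-EGFP+) changed sign in at least 1 alternative, none while called. Apart from the 5 members named, the block changed no member's call. The median SE of a member, TSPAN8-high against TSPAN8-low, was 0.17 on the log2 scale. Unknown depth limits Tfeb, Naglu, Galc, Ctsh, Manba and Scarb2 most.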
